A study of Mus musculus with 20 samples.

Results

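The comparison described here set endothelial cells from tumours of Tie2Cre_H2Abf hosts (label genotype Tie2Cre;H2Ab fl/fl, n = 4 libraries) against those of wild-type hosts (WT, n = 4). These 8 of the series' 20 libraries were chosen by their titles alone. The question was which differences seen between Tie2Cre_H2Abf and Tie2Cre hosts (Cre without a floxed allele in the label, n = 3) also stand against WT. All hosts were C57BL/6J mice whose mammary fat pad had been injected with cells of the mouse mammary carcinoma line E0771, and tumours were taken at 500 mm3. CD31-positive cells were enriched with microbeads and sorted, and their total RNA was sequenced after MATQ amplification, a method for small RNA inputs. The submitters class Tie2Cre_H2Abf as deficient and Tie2Cre and WT as competent for CD4 T cells. The labels give neither age nor sex, and they do not say which H2-Ab1 allele the Tie2Cre hosts carried. The libraries of Tie2Cre_H2Abf and Tie2Cre are numbered 95xx and those of WT 97xx, so genotype and number series cannot be told apart in any comparison with WT. The comparison with Tie2Cre lies within the 95xx numbers, and it uses the same Tie2Cre_H2Abf libraries. Groups titled CD4KO, CD8KO and TCRKO (n = 3 libraries each), numbered 97xx, are quoted beside some genes. Their libraries are also in the main edgeR model, so its estimate of the spread rests on them as well.

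MHC class II molecules are pairs of an alpha and a beta chain that present peptides to CD4 T cells. H2-Ab1 encodes the beta chain of the I-A molecule, the class II molecule of this strain, and H2-Aa its alpha chain. Cd74 encodes the invariant chain that escorts class II through the cell, H2-DMa and H2-DMb1 encode the chaperone that loads peptides, and Ciita encodes the transactivator of the class II genes. Tie2-Cre is active in endothelial cells and also in blood cells, so the floxed allele is open to recombination in both. Endothelial cells can display class II molecules, above all under interferon-gamma, a cytokine that T cells release.

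Total counts ran from 5418948 to 11478902 in Tie2Cre_H2Abf, from 1543847 to 8820172 in Tie2Cre and from 2014883 to 8946687 in WT. Ribosomal and other abundant RNA took most of them, and counts outside abundant RNA and satellite repeats came to 1354664 to 1823353 in Tie2Cre_H2Abf, 550437 to 1913349 in Tie2Cre and 231280 to 1552516 in WT. WT_9771 was the shallowest by this measure and held 47.1% satellite counts, and Tie2Cre_9501 held 19.7%; list results whose median or count moves without both are given again without them. Levels are given as CPM, counts scaled to the TMM-normalised library size and not to gene length, and 3 counts, the limit that a count of 0 allows, correspond to 0.434 to 0.534 CPM in Tie2Cre_H2Abf, 0.366 to 1.13 CPM in Tie2Cre and 0.497 to 2.46 CPM in WT. Where levels are listed by library, the order is Tie2Cre_H2Abf_9576, _9582, _9583 and _9589, then Tie2Cre_9501, _9502 and _9504, and WT_9748, _9749, _9771 and _9772. Fold changes are log2 values with their standard error, and a gene was called where the Benjamini-Hochberg adjusted p of edgeR's quasi-likelihood test over 14875 genes was below 0.05. Nothing in the labels says that the libraries came from separate animals, so the p-values rest on the spread among samples, which may be technical.

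The sorted cells carried endothelial transcripts in all 3 groups. Pecam1, which encodes CD31 itself, had 1044, 909, 1136 and 1360.2 CPM in Tie2Cre_H2Abf, 714, 1377 and 879 CPM in Tie2Cre and 1151, 1078, 435 and 1207 CPM in WT. Cdh5, the endothelial cadherin, averaged 1693 ± 277 CPM in Tie2Cre_H2Abf, 1214 ± 422 CPM in Tie2Cre and 1378 ± 433 CPM in WT (SD). The groups overlapped for both genes, and WT_9771 was the lowest library for each. Markers of other cells were low: the 10 T cell markers summed to at most 13.2 CPM in a Tie2Cre_H2Abf library, 14.4 CPM in a Tie2Cre library and 21.3 CPM in a WT library, with Cd3d, Cd3e, Cd3g, Cd8b1 and Trbc2 at 0 in every WT library. The 10 tumour epithelial markers summed to at most 3.62 CPM in Tie2Cre_H2Abf, 22.7 CPM in Tie2Cre and 11.5 CPM in WT, and Epcam, Esrp1, Krt19 and Krt5 were at 0 in every Tie2Cre_H2Abf and WT library. Macrophage markers were present in every library, with sums of 162 to 1139 CPM in Tie2Cre_H2Abf and 350.4 to 1326 CPM in WT.

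H2-Ab1, the gene that the floxed allele targets, was low in every Tie2Cre_H2Abf library. It had 6.37, 1.19, 0.712 and 4.34 CPM in Tie2Cre_H2Abf, 25.3, 96.2 and 59.95 CPM in Tie2Cre and 184, 138, 58.3 and 78.7 CPM in WT. Every Tie2Cre_H2Abf library lay below every library of the other two groups, as the genotype label implies. The gene (chr17:34257689-34269419, plus strand, GRCm38) fell by 5.18 ± 0.60 on the log2 scale against WT (adjusted p = 7.70e-05) and by 4.26 ± 0.59 against Tie2Cre (adjusted p = 0.00214). Summed over libraries it had 77 counts in Tie2Cre_H2Abf and 2247 counts in WT, a depth-scaled ratio of 0.0245 with an exact Poisson 95% interval of 0.0193 to 0.0308, which covers counting error only. Between the competent groups, Tie2Cre over WT was -0.92 ± 0.55 on the log2 scale (adjusted p = 0.791). The call against WT was kept in each of the 19 alternatives run (adjusted p 1.31e-26 to 0.0177), while with models of only the groups compared the call against Tie2Cre was lost (adjusted p = 0.128).

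H2-Aa, which pairs with H2-Ab1, and H2-Eb1, the beta chain gene of the I-E molecule, were well detected in Tie2Cre_H2Abf. H2-Aa had 141, 109, 86.8 and 83.5 CPM in Tie2Cre_H2Abf, 52.5, 103 and 77.7 CPM in Tie2Cre and 152, 183, 27.9 and 133 CPM in WT. H2-Eb1 had 78.4, 85.0, 43.6 and 68.5 CPM in Tie2Cre_H2Abf, 38.2, 30.2 and 22.0 CPM in Tie2Cre and 88.6, 108, 27.9 and 18.4 CPM in WT. The Tie2Cre_H2Abf and WT libraries overlapped for both genes, and the lowest library was a WT one each time. Over WT the log2 fold change was -0.25 ± 0.47 for H2-Aa and 0.17 ± 0.47 for H2-Eb1 (adjusted p = 0.912 and 0.949).

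Stretches of the H2-Aa and H2-Eb1 promoters (RefSeq, GRCm38.p6) are shown because both genes stood within the WT range in every Tie2Cre_H2Abf library while H2-Ab1 lay below it. Capitals mark the core letters of the X box (GCAAC) and of the Y box (ATTGG), the paired elements through which RFX, NF-Y and CIITA act on class II genes. H2-Aa lies on the minus strand (chr17:34287847-34287924) and H2-Eb1 on the plus strand (chr17:34305756-34305832).
H2-Aa: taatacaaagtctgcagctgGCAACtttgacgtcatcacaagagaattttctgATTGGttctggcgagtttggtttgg
H2-Eb1: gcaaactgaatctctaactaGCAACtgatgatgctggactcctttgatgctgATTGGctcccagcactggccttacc
The cores stand 28 bases apart in H2-Aa and 27 in H2-Eb1. Read on both strands, GCAAC is found in 35.2% and ATTGG in 37.4% of 32851 RefSeq promoters of 300 bases, and 13.7% hold both; 2.24% have the X core within 60 bases before the Y core on the same strand. The 2 motifs share no letters in these stretches, and a match is a description of the letters, not of binding.

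The chaperone genes and the transactivator overlapped WT as well, and some of them were separated from Tie2Cre. Cd74 had 960.4, 496, 333 and 768 CPM in Tie2Cre_H2Abf, 111, 311 and 204 CPM in Tie2Cre and 1511, 1223, 337 and 227 CPM in WT. H2-DMb1 had 32.0, 29.1, 14.9 and 38.1 CPM in Tie2Cre_H2Abf, 1.89, 4.39 and 10.7 CPM in Tie2Cre and 40.9, 27.4, 13.95 and 19.1 CPM in WT. Both genes overlapped with WT, and every Tie2Cre_H2Abf library lay above every Tie2Cre library. H2-DMa had 21.1, 21.7, 6.58 and 18.7 CPM in Tie2Cre_H2Abf, 0.756, 5.36 and 8.69 CPM in Tie2Cre and 5.30, 12.1, 3.28 and 3.41 CPM in WT. It overlapped in both comparisons through Tie2Cre_H2Abf_9583 alone. Its log2 fold change was 1.47 ± 0.66 over WT and 1.75 ± 0.73 over Tie2Cre, neither called by edgeR (adjusted p = 0.560 and 0.576). Ciita spread widely, with 15.4, 1.86, 8.01 and 6.51 CPM in Tie2Cre_H2Abf, 0.378, 2.93 and 0.126 CPM in Tie2Cre and 19.2, 13.8, 4.10 and 1.89 CPM in WT. Of the 9 class II genes tested, H2-Ab1 was the 1 called, against a background of 0.00672% of all genes called lower over WT. The list median was -0.25 over WT and 1.75 over Tie2Cre, beside medians of -0.19 and -0.24 for all genes; the median over WT was 0.11 with limma-voom and -0.041 without WT_9771 and Tie2Cre_9501. Over Tie2Cre 6 of the 9 had an unadjusted p under 0.05 on the higher side (background 2.69%), and none of these 6 passed adjustment. Without WT_9771 and Tie2Cre_9501 this held for 3 of the 9 (372 of all 14770 genes), and the median over Tie2Cre was 1.38.

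**Figure D1:**
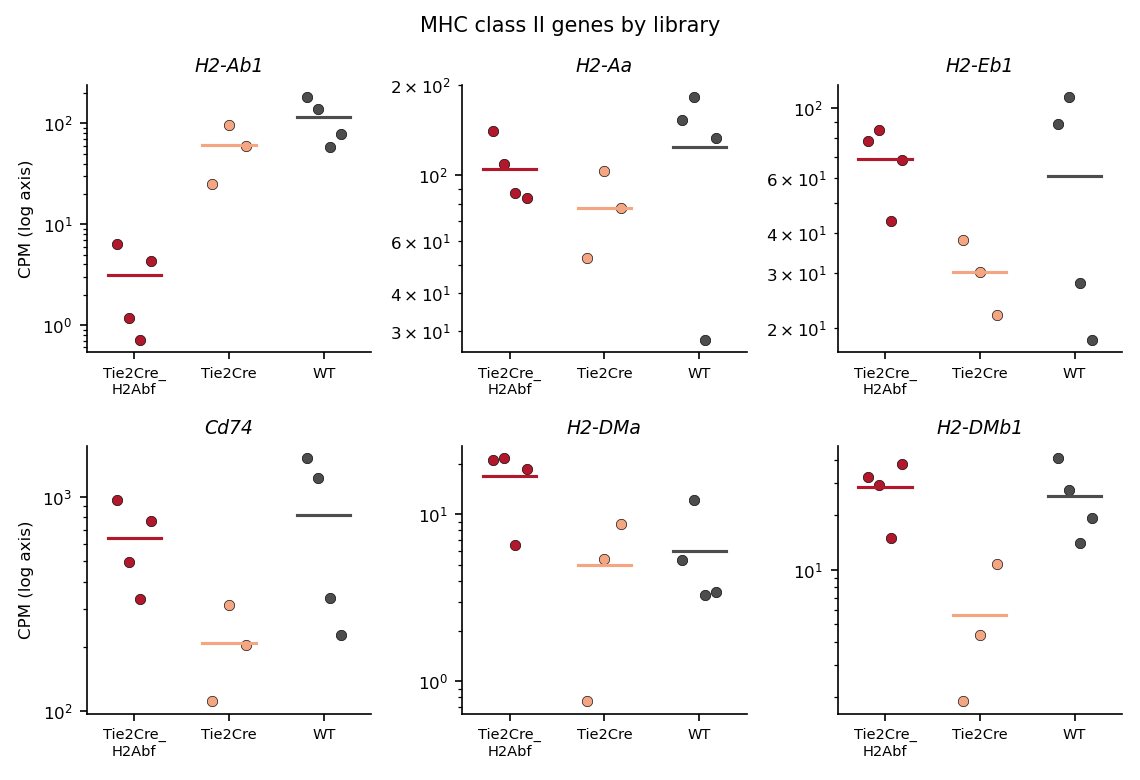
Levels of 6 MHC class II genes in every library, in CPM on log axes, with Tie2Cre_H2Abf (red), Tie2Cre (orange) and WT (grey) from left to right; points are libraries and bars are means. H2-Ab1 lies at 0.712 to 6.37 CPM in Tie2Cre_H2Abf and at 25.3 CPM or more in all other libraries shown. H2-Aa, H2-Eb1, Cd74 and H2-DMb1 of Tie2Cre_H2Abf lie within the WT range. H2-DMa lies above the WT range in Tie2Cre_H2Abf_9576, _9582 and _9589 and within it in Tie2Cre_H2Abf_9583.

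Across the transcriptome, 1 gene was called against WT, H2-Ab1, and no gene was called higher. At an unadjusted p under 0.05 there were 486 genes higher (3.27%) and 836 lower (5.62%), 8.89% of 14875. Of these 36.8% were higher, a share that was 61.6% without WT_9771 and Tie2Cre_9501, 60.8% with limma-voom and 24.3% with RLE size factors. DESeq2 called 36 higher (0.242%) and 26 lower (0.175%), and limma-voom with sample weights called 4 each way (0.0269% each, 0.0538% in all). Against Tie2Cre 3 genes were called, each lower: H2-Ab1, Fbln2 and Fabp4 (0.0202%). At an unadjusted p under 0.05 there were 400 higher (2.69%) and 871 lower (5.86%) over Tie2Cre, 8.54% of genes. All 3 had negative fold changes over WT with an unadjusted p under 0.05, and 1, H2-Ab1, passed over WT as well. Both comparisons use the same Tie2Cre_H2Abf libraries, so a shared direction is in part built in. The stricter joint test, on the larger of the 2 p-values per gene, again called H2-Ab1 alone (adjusted p = 0.00214). At an unadjusted larger p under 0.05 there were 71 genes higher over both (0.477%) and 373 lower over both (2.51%), 2.98% of genes. Without WT_9771 and Tie2Cre_9501 there were 78 higher (0.528%) and 87 lower (0.589%) over both, so most of the excess on the lower side was lost. Over Tie2Cre alone the counts without these libraries were 372 higher and 432 lower of 14770 genes. Tie2Cre against WT gave 0 calls with edgeR (1019 genes, 6.85%, at an unadjusted p under 0.05, 591 of them, 3.97%, higher in Tie2Cre), 77 with DESeq2 (45 of them, 0.303%, higher) and 0 with limma-voom.

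The number of changes that stood over both differed between tools. Of 58 genes that DESeq2 called over Tie2Cre (37 of them, 0.249%, lower), 54 kept their direction over WT and 15 were also called there, 2 higher (0.0134%) and 13 lower (0.0874%), 0.101% of genes. Of these 15, 7 had fitted log2 changes beyond 15 in size, which occurs where a whole group is at or near 0 counts. The other 8 were Apln and Gm9825 on the higher side and H2-Ab1, Fbln2, Fbn1, Il6st, Ptk2b and Eps8 on the lower side; Gm9825 and Eps8 are named after their values were seen. Of 8 genes that limma-voom called over Tie2Cre (0.0538%), each lower, 2 were also called over WT, H2-Ab1 and Fbln2. Since both comparisons use the same Tie2Cre_H2Abf libraries, a direction or call kept over WT is not independent of that over Tie2Cre.

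**Figure D2:**
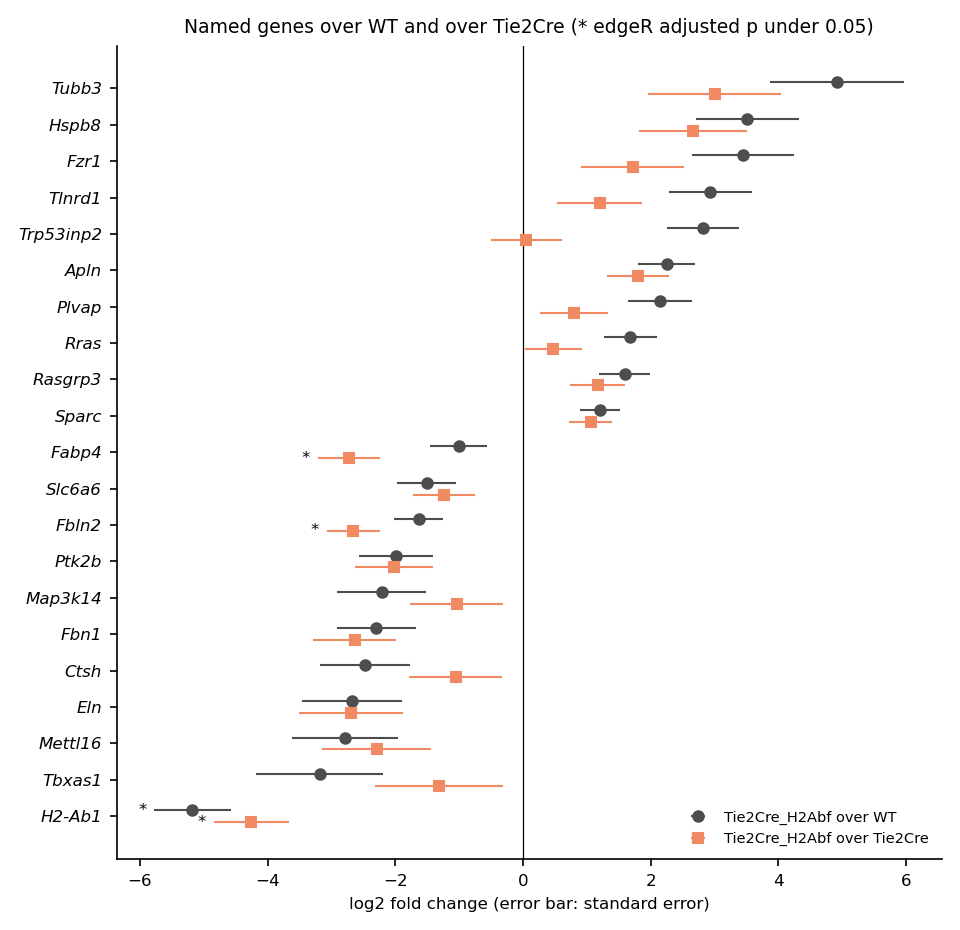
Log2 fold change with its standard error for the genes named by the smallest p over WT or called over Tie2Cre, over WT (grey circles) and over Tie2Cre (orange squares); an asterisk marks an edgeR adjusted p under 0.05. H2-Ab1 carries an asterisk in both comparisons, Fbln2 and Fabp4 over Tie2Cre, and Trp53inp2 stands at 2.82 over WT and 0.05 over Tie2Cre.

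Fbln2, which encodes fibulin-2, a protein of basement membranes and elastic fibres, was the 1 gene beside H2-Ab1 that both DESeq2 and limma-voom called over Tie2Cre and over WT. It had 67.5, 52.7, 91.3 and 103 CPM in Tie2Cre_H2Abf, 546, 629.6 and 317 CPM in Tie2Cre and 263, 320.3, 136 and 256 CPM in WT. No Tie2Cre_H2Abf library reached the lowest library of either group, a separation on the lower side that 0.188% of all genes showed. Fbln2 (chr6:91212455-91272540, plus strand) fell by 2.66 ± 0.41 on the log2 scale against Tie2Cre (adjusted p = 0.00670). Over WT its log2 fold change was -1.63 ± 0.38 and missed the threshold with edgeR (adjusted p = 0.309), while DESeq2 and limma-voom called it (adjusted p = 5.90e-05 and 0.0303). Its change over Tie2Cre exceeded that over WT by the log2 difference between Tie2Cre and WT, 1.03 ± 0.40, which did not pass (adjusted p = 0.676). The call over Tie2Cre was lost without Tie2Cre_H2Abf_9582 (adjusted p = 0.0811) and without Tie2Cre_9502 (0.0667). Among the other CD4-deficient hosts, TCRKO averaged 63.7 CPM and CD4KO 247 CPM, and CD8KO hosts averaged 292 CPM.

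Other genes of elastic fibres and microfibrils lay on the same side. Fbn1, fibrillin-1, the main protein of microfibrils, had 7.26, 2.54, 5.52 and 7.82 CPM in Tie2Cre_H2Abf, 36.7, 51.7 and 20.2 CPM in Tie2Cre and 45.0, 7.43, 33.6 and 28.2 CPM in WT. Eln, elastin, the core of the elastic fibre, had 4.96, 0.847, 1.60 and 5.07 CPM in Tie2Cre_H2Abf, 19.7, 27.4 and 13.98 CPM in Tie2Cre and 38.6, 18.1, 4.10 and 18.6 CPM in WT. For each, all Tie2Cre_H2Abf libraries lay below all Tie2Cre libraries and 1 WT library reached into their range. Fbln5, fibulin-5, which tethers elastin to cells, had 15.8, 15.8, 30.3 and 16.1 CPM in Tie2Cre_H2Abf, 156, 109 and 76.5 CPM in Tie2Cre and 14.4, 28.9, 59.9 and 85.6 CPM in WT, so that its overlap with WT was wider. Over WT the log2 fold changes were -2.30 ± 0.62 for Fbn1, -2.68 ± 0.78 for Eln and -1.27 ± 0.46 for Fbln5, none past the edgeR threshold (adjusted p = 0.518, 0.560 and 0.560); DESeq2 called Fbn1 and Eln (adjusted p = 0.0113 and 0.0497). Over Tie2Cre they were -2.64 ± 0.65, -2.70 ± 0.81 and -2.55 ± 0.50 in the same order.

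Of the 12 fibulin and microfibril genes tested, edgeR called 0 over WT and 1, Fbln2, over Tie2Cre; Fbln5 was called over Tie2Cre by DESeq2 and limma-voom (adjusted p = 4.73e-05 and 0.00860). Fbln2, Fbn1, Eln and Fbln5 had an unadjusted larger p under 0.05 over both groups on the lower side, against 2.51% of all genes, and 4 members did so without WT_9771 and Tie2Cre_9501 (background 0.589% there). Of the other 8, 3 stood above 0 over WT, namely Efemp1 and Efemp2, 2 further fibulins, at 2.05 ± 1.77 and 2.71 ± 1.69, and Ltbp3, which binds latent TGF-beta, at 1.16 ± 1.04. The list median was -0.35 over WT and -0.60 over Tie2Cre, and -0.49 and -0.35 without WT_9771 and Tie2Cre_9501. Mural cells and fibroblasts also express such genes. The 12 mural markers summed to 44.1 to 114 CPM in Tie2Cre_H2Abf, 72.6 to 104 CPM in Tie2Cre and 46.0 to 90.9 CPM in WT. The 15 fibroblast markers summed to 12.7 to 44.9 CPM in Tie2Cre_H2Abf, 35.3 to 102 CPM in Tie2Cre and 4.89 to 61.5 CPM in WT. Both ranges overlapped between Tie2Cre_H2Abf and WT, and Tagln, a smooth-muscle actin-binding protein, was higher in every Tie2Cre library (26.8, 15.7 and 35.3 CPM) than in every Tie2Cre_H2Abf library (1.59, 0.169, 2.14 and 3.33 CPM). The part of such cells in the matrix genes was not tested, and in bulk RNA fewer cells of a type and less RNA per cell cannot be told apart.

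**Figure D3:**
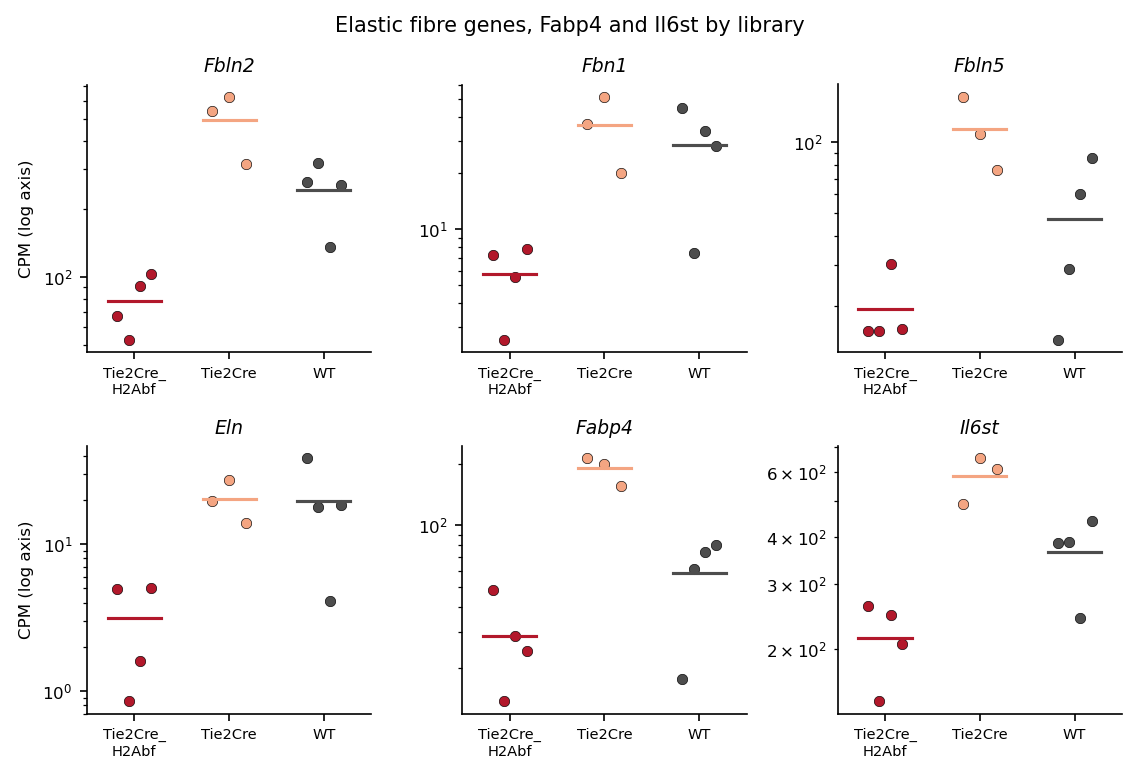
Levels of Fbln2, Fbn1, Fbln5, Eln, Fabp4 and Il6st in every library, in CPM on log axes, with Tie2Cre_H2Abf, Tie2Cre and WT from left to right; points are libraries and bars are means. Fbln2 is separated from both groups, at 52.7 to 103 CPM in Tie2Cre_H2Abf, and Fabp4 is separated from Tie2Cre but overlaps WT.

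Fabp4, a fatty acid binding protein of capillary endothelium and fat cells, was called over Tie2Cre and not over WT. It had 48.3, 13.7, 28.8 and 24.2 CPM in Tie2Cre_H2Abf, 214, 201 and 156 CPM in Tie2Cre and 17.7, 61.2, 73.9 and 79.9 CPM in WT. Every Tie2Cre library lay above every library of the other two groups, and the Tie2Cre_H2Abf range overlapped that of WT. Fabp4 (chr3:10204088-10208576, minus strand) fell by 2.72 ± 0.49 on the log2 scale against Tie2Cre (adjusted p = 0.0401), whereas over WT its log2 fold change of -1.01 ± 0.45 did not pass with edgeR, DESeq2 or limma-voom (adjusted p = 0.560, 0.250 and 0.688). The call over Tie2Cre was lost when any 1 of 7 libraries was left out, namely Tie2Cre_H2Abf_9582, Tie2Cre_H2Abf_9583, Tie2Cre_H2Abf_9589, each Tie2Cre library or WT_9749 (adjusted p 0.0636 to 0.336). Tie2Cre over WT was 1.71 ± 0.48 (adjusted p = 0.491). The 6 other fat cell markers (Adipoq, Cfd, Cidec, Lep, Plin1 and Retn) summed to 0, 0, 1.07 and 0 CPM in Tie2Cre_H2Abf, 10.6, 0.122 and 0.882 CPM in Tie2Cre and 0, 0, 25.4 and 0 CPM in WT. They were highest in the satellite-rich libraries WT_9771 and Tie2Cre_9501 and near 0 in the other two Tie2Cre libraries, where Fabp4 had 201 and 156 CPM; their part in the Fabp4 difference was not tested.

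Il6st, which encodes gp130, the shared signal chain of interleukin-6 receptors, and Ptk2b, a focal adhesion kinase relative, were 2 further genes on the lower side. Il6st had 261, 144, 246 and 207 CPM in Tie2Cre_H2Abf, 492, 654 and 610.4 CPM in Tie2Cre and 386, 389, 242 and 444 CPM in WT, with a log2 fold change of -0.77 ± 0.32 over WT. Ptk2b had 7.44, 15.1, 5.16 and 5.07 CPM in Tie2Cre_H2Abf, 57.4, 25.6 and 17.5 CPM in Tie2Cre and 51.8, 37.4, 23.8 and 16.7 CPM in WT, with a log2 fold change of -1.99 ± 0.58 over WT. Ptk2b libraries were separated from both groups, and Il6st libraries from Tie2Cre. Neither passed with edgeR over WT (adjusted p = 0.560 and 0.560), and DESeq2 called both over WT and over Tie2Cre. Slc6a6, the taurine transporter, stood at -1.51 ± 0.46 over WT and -1.24 ± 0.49 over Tie2Cre, and Mettl16, an RNA methyltransferase, at -2.79 ± 0.83 and -2.29 ± 0.85.

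On the higher side Apln stood out. Apln encodes apelin, a peptide that endothelial tip cells at the front of a growing vessel release. It had 688, 495, 416 and 773 CPM in Tie2Cre_H2Abf, 85.0, 163 and 262 CPM in Tie2Cre and 68.5, 73.5, 66.5 and 288 CPM in WT. All Tie2Cre_H2Abf libraries lay above all libraries of both groups, a separation that 0.901% of genes showed. Apln (chrX:48025146-48034853, minus strand) had a log2 fold change of 2.25 ± 0.44 over WT and 1.80 ± 0.49 over Tie2Cre, which edgeR did not call (adjusted p = 0.124 and 0.576). DESeq2 called it in both comparisons (adjusted p = 0.000242 and 0.0249) and limma-voom over WT (adjusted p = 0.00376). WT_9772 was the WT library nearest to the Tie2Cre_H2Abf range, and without it Apln passed with edgeR over WT (adjusted p = 0.000874). TCRKO averaged 579 CPM, CD4KO 173 CPM and CD8KO 352 CPM, with CD8KO libraries from 277 to 472 CPM that reached into the Tie2Cre_H2Abf range. These differences were not tested here.

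Sparc, a secreted collagen-binding glycoprotein, had 3357, 2595, 2888 and 3689 CPM in Tie2Cre_H2Abf, 1093, 1431 and 1993 CPM in Tie2Cre and 1202, 1912, 583 and 1739 CPM in WT. Hspb8, a small heat shock protein, had 21.2, 33.5, 37.4 and 31.4 CPM in Tie2Cre_H2Abf, 0.378, 9.02 and 4.79 CPM in Tie2Cre and 1.32, 2.76, 0.821 and 5.30 CPM in WT. Rasgrp3, an activator of Ras, had 91.2, 93.0, 148 and 138 CPM in Tie2Cre_H2Abf, 80.1, 45.9 and 31.5 CPM in Tie2Cre and 48.5, 41.6, 23.8 and 41.1 CPM in WT. For all 3 the Tie2Cre_H2Abf libraries lay above every library of both competent groups. Their log2 fold changes over WT were 1.2 ± 0.31 for Sparc, 3.51 ± 0.80 for Hspb8 and 1.59 ± 0.40 for Rasgrp3, none past edgeR's threshold (adjusted p = 0.432, 0.302 and 0.388), all called by DESeq2 over WT, and Sparc by limma-voom (adjusted p = 0.0310). Over Tie2Cre no tool called any of them. Tubb3, a beta-tubulin, and Fzr1, an adaptor of the anaphase-promoting complex, were likewise separated from both groups, with 765 and 486 counts in Tie2Cre_H2Abf against 18 and 36 in WT. Of these, Hspb8, Tubb3 and Fzr1 had at most 5.30 CPM in each WT library, where 0 in WT_9771 allows up to 2.46 CPM.

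Several of the genes with the smallest p over WT were not separated from Tie2Cre. Trp53inp2, an autophagy regulator, had 25.5, 14.7, 25.4 and 22.7 CPM in Tie2Cre_H2Abf, 18.5, 23.3 and 22.0 CPM in Tie2Cre and 2.65, 6.58, 0 and 2.27 CPM in WT. Its log2 fold change was 2.82 ± 0.56 over WT (adjusted p = 0.124) and 0.05 ± 0.55 over Tie2Cre, and Tie2Cre over WT was 2.77 ± 0.58 (adjusted p = 0.337). The other 3 groups numbered 97xx, CD4KO, CD8KO and TCRKO, averaged 20.7, 24.0 and 30.0 CPM. Plvap, the protein of endothelial fenestrae, had 1130.3, 792, 1301 and 1658 CPM in Tie2Cre_H2Abf, 461, 1125 and 521 CPM in Tie2Cre and 197, 126, 124 and 655 CPM in WT, with 2.15 ± 0.50 over WT and 0.80 ± 0.53 over Tie2Cre. Rras, a Ras-related GTPase of the vessel wall, stood at 1.68 ± 0.42 over WT and 0.48 ± 0.44 over Tie2Cre, and Tlnrd1, a talin rod domain protein, at 2.93 ± 0.65 and 1.2 ± 0.66. All 4 were separated from WT and overlapped Tie2Cre, and edgeR called none of them over WT (adjusted p = 0.124 to 0.388). DESeq2 called all 4 over WT and none over Tie2Cre, and limma-voom called Plvap over WT (adjusted p = 0.0293).

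**Figure D4:**
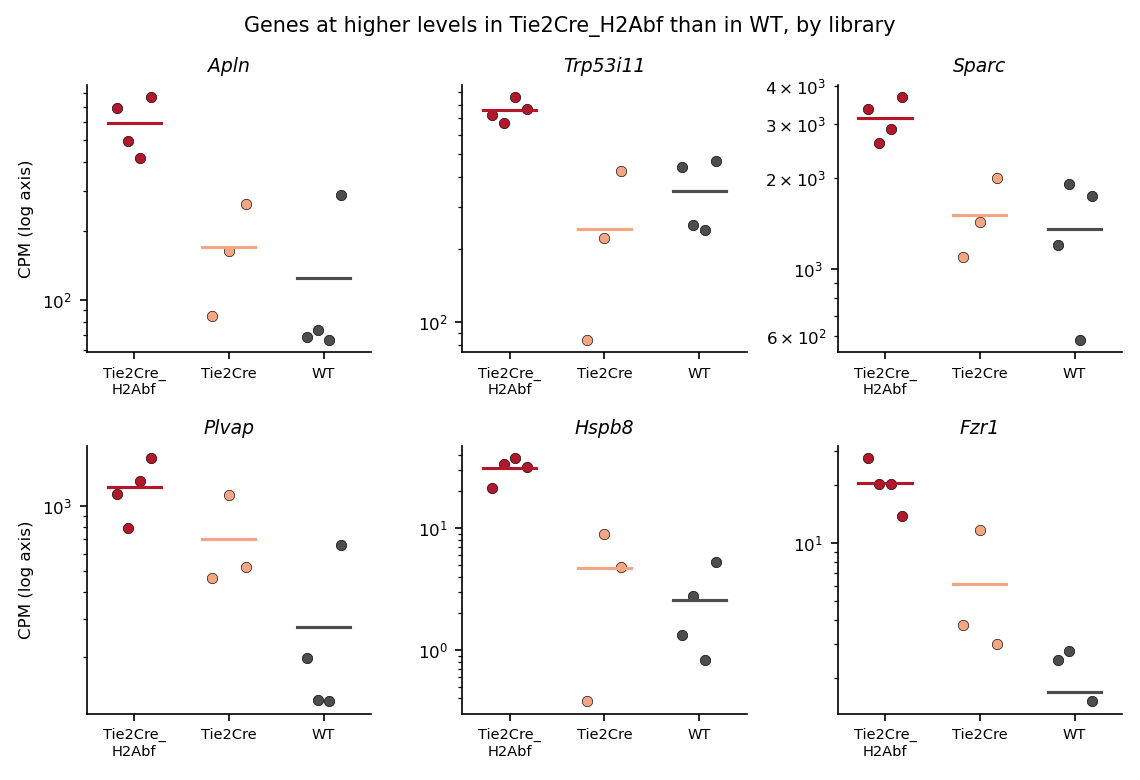
Levels of Apln, Trp53i11, Sparc, Plvap, Hspb8 and Fzr1 in every library, in CPM on log axes, with Tie2Cre_H2Abf, Tie2Cre and WT from left to right; points are libraries, bars are means, and a library at 0 is not drawn. Apln, Trp53i11, Sparc, Hspb8 and Fzr1 are separated from both groups, and Plvap at 792 CPM and above is separated from WT and overlaps Tie2Cre.

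Tip cell genes as a group lay on the higher side. All 20 tested members had fold changes above 0 over WT and over Tie2Cre, where 42.6% and 41.6% of all genes did; edgeR called 0 in either. DESeq2 called Apln over both, and Trp53i11 (adjusted p = 0.00841), Dll4 and Pgf higher over Tie2Cre, and limma-voom called Apln over WT. Over all genes DESeq2 called 0.242% higher over WT and 0.141% higher over Tie2Cre, and limma-voom 0.0269% higher over WT. The list median was 0.71 over WT and 1.07 over Tie2Cre. On the higher side 3 and 13 members had an unadjusted p under 0.05, against 3.27% and 2.69% of all genes. Without WT_9771 and Tie2Cre_9501 these were 2 and 9 members, against 719 and 372 of all 14770 genes. Trp53i11, a p53-inducible gene of tumour tip cell lists, had 723, 673, 861 and 769 CPM in Tie2Cre_H2Abf, 83.9, 224 and 422 CPM in Tie2Cre and 439, 253, 240.4 and 465 CPM in WT, separated from both. Insr, the insulin receptor, stood at 0.73 ± 0.32 over WT and 0.92 ± 0.35 over Tie2Cre, and Mcam, an adhesion molecule of vessels, at 0.76 ± 0.38 and 0.99 ± 0.42. Dll4, the Notch ligand of tip cells, had 192, 253, 255 and 292 CPM in Tie2Cre_H2Abf, 71.4, 92.6 and 86.9 CPM in Tie2Cre and 247, 229.6, 53.3 and 133 CPM in WT, so it was separated from Tie2Cre and overlapped WT. Without WT_9771 and Tie2Cre_9501 the counts above 0 were 19 of 20 over WT and 20 of 20 over Tie2Cre (51% and 49.1% of all genes), with medians of 0.50 and 0.80. The 20 genes are not independent of one another, and the fold changes over WT and over Tie2Cre share the Tie2Cre_H2Abf libraries. The list was also written with earlier results of these data known, so a shared direction may in part come from the choice of members.

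General endothelial transcripts leaned the same way, and their part in the tip cell values was not tested. The 23 endothelial identity genes summed to 7408 to 11316 CPM in Tie2Cre_H2Abf, 4869.5 to 9017 CPM in Tie2Cre and 3167 to 7143 CPM in WT. The Tie2Cre_H2Abf sums lay above all WT sums, and the lowest WT sum was that of WT_9771. Fold changes over WT were above 0 for 21 of 23 with a median of 0.51, and without the 2 satellite-rich libraries for 19 with a median of 0.27. Cd34, Eng, Fli1, Plvap and Sox18 were separated from WT, 5 of 23 where 3.76% of all genes were. Eng, endoglin, a TGF-beta co-receptor, had 1259, 1121, 1323 and 1687 CPM in Tie2Cre_H2Abf, 719, 1191 and 924 CPM in Tie2Cre and 821, 994, 333 and 642 CPM in WT. DESeq2 called Eng over WT (adjusted p = 0.0240) and edgeR did not (adjusted p = 0.560).

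Transcription factors of endothelium showed the same lean, though this list is not separate from the endothelial identity list, as both hold Fli1 and Sox18. Of 20 tested, 18 had fold changes above 0 over WT (42.6% of all genes) and 6 were separated from WT on the higher side (3.76% of all genes), namely Elk3, Ets1, Fli1, Klf2, Sox7 and Sox18; edgeR called 0. Fli1, an ETS factor, had 210.0, 190.2, 264 and 232 CPM in Tie2Cre_H2Abf, 165, 180.5 and 125 CPM in Tie2Cre and 125, 104, 36.1 and 113 CPM in WT. Sox18, a SOX factor of vessels and lymphatics, had 112, 74.7, 87.6 and 115 CPM in Tie2Cre_H2Abf, 85.0, 96.3 and 68.1 CPM in Tie2Cre and 36.4, 58.0, 22.2 and 62.8 CPM in WT. Fli1 and Elk3 were also separated from Tie2Cre, and Sox18 was not. The list median was 0.62 over WT and 0.22 over Tie2Cre. Without WT_9771 and Tie2Cre_9501 it was 0.57 over WT with 16 of 20 above 0, and -0.0039 over Tie2Cre with 9 of 20 above 0, so the lean over Tie2Cre was lost.

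In the TGF-beta and BMP pathway, 15 of 20 genes had fold changes above 0 over WT (42.6% of all genes), 7 were separated on the higher side (3.76%) and 1 on the lower side (0.995%), and edgeR called 0. Eng, 1 of the 7, is also in the endothelial identity list. The median over WT was 0.56, and 0.32 without WT_9771 and Tie2Cre_9501, with 15 of 20 above 0. Smad1, the signal transducer of BMP receptors, had 107, 131, 95.4 and 93.4 CPM in Tie2Cre_H2Abf, 90.7, 55.5 and 100.1 CPM in Tie2Cre and 35.9, 31.6, 33.6 and 63.2 CPM in WT. Id1, a target gene of BMP signals, had 13.6, 19.3, 17.1 and 24.3 CPM in Tie2Cre_H2Abf, 16.2, 12.9 and 11.7 CPM in Tie2Cre and 12.6, 9.77, 1.64 and 6.81 CPM in WT. Both were separated from WT and overlapped Tie2Cre. Tgfbr3, the co-receptor betaglycan, stood on the other side, at 31.9, 44.7, 52.5 and 11.4 CPM in Tie2Cre_H2Abf, 128, 154 and 80.9 CPM in Tie2Cre and 65.9, 76.0, 43.5 and 114 CPM in WT. Its log2 fold change was -1.10 ± 0.42 over WT (adjusted p = 0.560) and -1.78 ± 0.45 over Tie2Cre (adjusted p = 0.465), where DESeq2 called it (adjusted p = 0.00133).

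VEGF family and basement membrane genes had higher medians over Tie2Cre than over WT, and the difference between these, Tie2Cre over WT, was called for no gene. Of 8 VEGF genes tested, 6 had fold changes above 0 over WT and 7 over Tie2Cre (42.6% and 41.6% of all genes). The medians were 0.44 and 1.16, with 0 calls by edgeR. These medians were, without WT_9771 and Tie2Cre_9501, 0.21 and 0.90. Kdr, the main VEGF receptor, stood at 0.46 ± 0.39 over WT and 0.66 ± 0.43 over Tie2Cre, and Flt1, which binds VEGF as a decoy, at 0.42 ± 0.35 and 0.99 ± 0.38. Pgf, placental growth factor, had 63.7, 19.0, 17.8 and 59.2 CPM in Tie2Cre_H2Abf, 0.378, 12.6 and 10.7 CPM in Tie2Cre and 32.3, 15.9, 9.85 and 29.0 CPM in WT, and DESeq2 called it higher over Tie2Cre (adjusted p = 0.0490). Vegfa itself was barely detected, with 44 counts in Tie2Cre_H2Abf and 2 in WT (depth-scaled ratio 15.8, exact Poisson interval 4.11 to 134). Of 15 basement membrane genes, 12 had fold changes above 0 over WT and 14 over Tie2Cre (42.6% and 41.6% of all genes), with medians of 0.37 and 0.78. Without WT_9771 and Tie2Cre_9501 the lean over WT was not seen, with 8 of 15 above 0 (51% of all genes) and a median of 0.09, while 13 were above 0 over Tie2Cre with a median of 0.55. Hspg2, perlecan, had 3462, 2580.3, 3496 and 3462 CPM in Tie2Cre_H2Abf, 1114, 2331 and 1353 CPM in Tie2Cre and 3423, 2693, 782 and 1827 CPM in WT. Nid2, nidogen-2, stood at 0.75 ± 0.42 over WT and 1.29 ± 0.47 over Tie2Cre, and Lama4, a laminin chain of vessels, at 0.49 ± 0.39 and 1.14 ± 0.44. Each of these genes overlapped WT, and Hspg2, Nid2, Lama4, Flt1 and Pgf were separated from Tie2Cre on the higher side. The share of all genes separated from Tie2Cre alone was not counted, so these separations stand without a background.

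With edgeR no venous or leukocyte adhesion gene was called over WT or over Tie2Cre; Il6st, a member of the venous list, was called by DESeq2 over both and by limma-voom over Tie2Cre (adjusted p = 0.0212). Of 10 venous genes 4 had fold changes above 0 over WT (42.6% of all genes did), with a median of -0.36 over WT (-0.55 without WT_9771 and Tie2Cre_9501) and -1.12 over Tie2Cre. Selp, P-selectin, which captures leukocytes, had 72.9, 62.3, 74.9 and 99.4 CPM in Tie2Cre_H2Abf, 150.4, 195 and 210.5 CPM in Tie2Cre and 155, 137, 32.8 and 147 CPM in WT. Ackr1, a chemokine receptor of venules, had 11.2, 18.8, 21.4 and 23.2 CPM in Tie2Cre_H2Abf, 51.4, 55.1 and 48.0 CPM in Tie2Cre and 11.3, 45.0, 18.1 and 43.5 CPM in WT. Both lay below every Tie2Cre library and overlapped WT. Sele, E-selectin, stood at -2.06 ± 1.10 over WT. Of 15 leukocyte adhesion genes 7 had fold changes above 0 over WT (median -0.11, turning to 0.20 without WT_9771 and Tie2Cre_9501 and to 0.23 with limma-voom), and edgeR, DESeq2 and limma-voom called 0. F11r, a junctional adhesion molecule, stood at 0.93 ± 0.36 and Cd34, a sialomucin, at 0.73 ± 0.32 over WT.

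Capillary and fatty acid genes split. Gpihbp1, which anchors lipoprotein lipase to capillaries, had 235, 413, 271 and 345 CPM in Tie2Cre_H2Abf, 92.6, 116 and 249 CPM in Tie2Cre and 108, 198, 162 and 199.5 CPM in WT, separated from WT on the higher side. Aqp1, a water channel, stood at 0.70 ± 0.34 over WT, while Lpl, lipoprotein lipase, stood at -2.11 ± 1.06 and Acsl1, an acyl-CoA synthetase, at -1.72 ± 0.92. Over WT the 9 capillary genes had a median of -0.41 and the 11 fatty acid uptake genes one of 0.40; over Tie2Cre the medians were -0.94 and -0.93. Leaving out WT_9771 and Tie2Cre_9501 gave medians over WT of -0.73 for capillary and 0.17 for fatty acid uptake genes, and -1.08 and -0.55 over Tie2Cre. Fabp4, in both lists, was the 1 member called, over Tie2Cre.

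Interferon-gamma response genes were examined because this cytokine induces class II genes and CD4 T cells release it. Of 28 tested, 23 had fold changes above 0 over WT and 22 over Tie2Cre (42.6% and 41.6% of all genes), with medians of 0.42 and 0.55. EdgeR, DESeq2 and limma-voom called 0, and 0 were separated from WT. On the higher side 2 members had an unadjusted edgeR p under 0.05 over WT (3.27% of all genes). Over Tie2Cre 10 members did (2.69% of all genes). Without WT_9771 and Tie2Cre_9501 the medians were 0.27 and 0.67, with 22 and 24 of 28 above 0 (51% and 49.1% of all genes). The members with an unadjusted p under 0.05 were then 3 and 5, against 719 and 372 of all 14770 genes. Cxcl9, a chemokine that attracts T cells, had 490.4, 128, 114 and 411 CPM in Tie2Cre_H2Abf, 47.2, 102 and 89.7 CPM in Tie2Cre and 95.02, 209, 162 and 80.8 CPM in WT. Ifi47, an interferon-inducible GTPase, had 93.8, 93.3, 48.1 and 100.5 CPM in Tie2Cre_H2Abf, 27.6, 55.8 and 42.4 CPM in Tie2Cre and 36.3, 55.4, 39.4 and 39.8 CPM in WT. In both, Tie2Cre_H2Abf_9576 and Tie2Cre_H2Abf_9589 lay above all WT libraries and Tie2Cre_H2Abf_9583 did not. Cd274, the checkpoint ligand PD-L1, stood at 0.82 ± 0.43 over WT and Tgtp1, a GTPase of this list, at 0.69 ± 0.38. Tgtp1 has a near-identical copy, Tgtp2, so its counts are uncertain. Of 14 MHC class I genes 8 had fold changes above 0 over WT and 12 over Tie2Cre (42.6% and 41.6% of all genes). Tap1, a peptide transporter, had 159, 135, 121 and 207 CPM in Tie2Cre_H2Abf, 38.5, 105 and 85.0 CPM in Tie2Cre and 135, 151, 59.1 and 131 CPM in WT. The class I median of 0.14 over WT turned to -0.03 without WT_9771 and Tie2Cre_9501 and to -0.01 with RLE size factors. Over Tie2Cre it was 0.63, and 3 members had an unadjusted edgeR p under 0.05 on the higher side (2.69% of all genes). Without WT_9771 and Tie2Cre_9501 these were 0.38 and 0 members. DESeq2 called the class I genes H2-Q6 and H2-Q7 higher over Tie2Cre (0.141% of all genes) and not over WT.

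**Figure D5:**
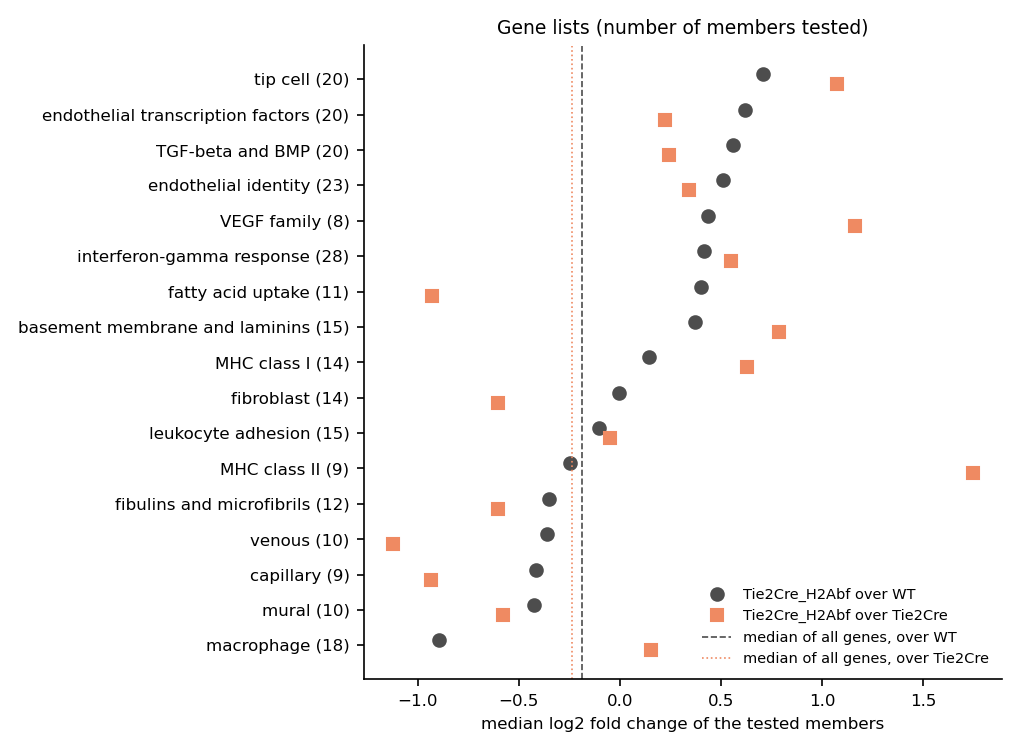
Median log2 fold change of the tested members of each list described, over WT (grey circles) and over Tie2Cre (orange squares), with the number of members in parentheses; vertical lines are the medians of all genes, -0.19 and -0.24. The tip cell list has the highest median over WT, 0.71, the macrophage list the lowest, -0.90, and the class II list stands at -0.25 over WT and 1.75 over Tie2Cre.

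Macrophage markers leaned to the lower side against WT, and edgeR, DESeq2 and limma-voom called none of the 18. Their sum ran from 162 to 1139 CPM in Tie2Cre_H2Abf (median 304), from 327 to 539 CPM in Tie2Cre (median 451) and from 350.4 to 1326 CPM in WT (median 1015). The ranges overlapped, and no marker was at 0 throughout a group. Fold changes over WT were below 0 for 17 of 18 (57% of all genes), with a median of -0.90 over WT (-1.16 without WT_9771 and Tie2Cre_9501) and 0.15 over Tie2Cre. Csf1r, the macrophage growth factor receptor, had 7.61, 63.9, 28.3 and 4.20 CPM in Tie2Cre_H2Abf, 14.7, 21.7 and 23.6 CPM in Tie2Cre and 184, 82.2, 41.0 and 76.7 CPM in WT, and its Tie2Cre_H2Abf and WT ranges overlapped. The lowest Csf1r levels in Tie2Cre_H2Abf were those of Tie2Cre_H2Abf_9576 and Tie2Cre_H2Abf_9589, the 2 libraries with the most Cd74 in that group. In WT the order was the other way, as WT_9748 and WT_9749 had both the most Csf1r and the most Cd74. The relation between the 2 genes was not tested.

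Ctsh and Tbxas1, among the genes with the smallest p on the lower side, are known for expression in macrophages, and Ptprc for expression in leukocytes. Ctsh, a lysosomal protease, had 3.54, 14.2, 6.41 and 2.46 CPM in Tie2Cre_H2Abf, 13.6, 13.4 and 14.5 CPM in Tie2Cre and 46.8, 36.3, 12.3 and 51.9 CPM in WT. Tbxas1, thromboxane synthase, had 0.708, 2.88, 4.27 and 1.88 CPM in Tie2Cre_H2Abf, 15.1, 1.83 and 1.89 CPM in Tie2Cre and 27.0, 21.0, 32.8 and 8.71 CPM in WT. Ptprc, the leukocyte antigen CD45, had 5.84, 19.6, 15.1 and 1.88 CPM in Tie2Cre_H2Abf, 27.96, 25.7 and 26.8 CPM in Tie2Cre and 69.7, 41.4, 24.6 and 19.3 CPM in WT. Their log2 fold changes over WT were -2.48 ± 0.71 for Ctsh, -3.19 ± 1.00 for Tbxas1 and -1.87 ± 0.61 for Ptprc, none of them called by edgeR (adjusted p = 0.560 for each); over Tie2Cre they were -1.05 ± 0.73, -1.32 ± 1.01 and -1.34 ± 0.64. Map3k14, the kinase NIK of the NF-kappaB pathway, stood at -2.22 ± 0.70 over WT and -1.04 ± 0.73 over Tie2Cre, and Tbxas1 and Map3k14 were separated from WT. Since Tie2-Cre is active in blood cells too, class II transcripts of such cells fall under the same genotype, and how much of H2-Ab1 in WT came from macrophages was not tested.

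Collagen genes of fibroblasts were close to the limit of detection. Col6a2 had 45 counts over the Tie2Cre_H2Abf libraries and 2 over the WT libraries, a depth-scaled ratio of 16.1 with an exact Poisson interval of 4.21 to 137. Tie2Cre held 24 counts, and TCRKO, CD4KO and CD8KO averaged 17.5, 4.59 and 3.39 CPM. Col3a1 had 1 count in Tie2Cre_H2Abf and 13 in WT, all of the WT counts in WT_9771, a ratio of 0.0551 with an interval of 0.00130 to 0.367. The 14 fibroblast genes tested had a median of -0.01 over WT, which was 1.84 without WT_9771 and Tie2Cre_9501 and 0.69 with limma-voom, and the 10 mural genes one of -0.43, which was 0.55 with limma-voom. Thy1, a fibroblast and T cell surface protein, stood at 1.70 ± 0.97 over WT and Mmp2, a gelatinase, at 1.40 ± 0.82. Abcc9, a channel subunit of pericytes, had 30.5, 49.1, 86.3 and 23.4 CPM in Tie2Cre_H2Abf, 4.53, 14.1 and 9.95 CPM in Tie2Cre and 40.9, 39.7, 12.3 and 28.4 CPM in WT, so it was separated from Tie2Cre, where DESeq2 called it (adjusted p = 0.00298), and not from WT.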

How the data were processed

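The RNA of CD31-positive cells sorted from E0771 tumours was amplified with MATQ and made into Nextera XT libraries, which do not mark strand, per the labels' protocols. bcl2fastq 2.17, STAR, RSEM 1.2.28, DESeq2 and build GRCm38 are named in the submitters' processing notes; the versions of STAR and DESeq2 and the annotation release are not given in the sources used here. The authors deposited RSEM's expected counts for 46983 gene IDs per library, not normalized, per the file headers; 4.45% were not whole and all were rounded. RSEM shares reads among near-identical genes. GENCODE M21 gave symbols for 46488 IDs.

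Groups came from the titles. The members, gene lists and tests were chosen with earlier results of these data known. A model with 6 group means over all 20 libraries was fitted with edgeR 4.0.16 in R 4.3.3 (TMM, filterByExpr by group, robust quasi-likelihood; 14875 genes tested; Benjamini-Hochberg threshold 0.05; biological coefficient of variation 0.995). A joint test used the larger of the p-values over WT and over Tie2Cre where the signs were the same, adjusted over all genes. Depth-scaled ratios of summed counts have exact Poisson 95% intervals and replace fitted folds where a group held 3 counts or fewer. Named genes were 12 fixed ones, the 10 smallest p per direction over WT at 10 CPM or more, genes called over Tie2Cre or over both, and up to 4 per list described at 1 CPM or more; Dll4, H2-DMb1, Efemp1, Efemp2, Ltbp3 and genes named only as members of a count were added after their values were seen. Of 48 lists (596 genes, 595 matched) 17 are described by counts and medians, with no set test.

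Replicate libraries differed by at least 16.0 chi-square per degree of freedom, so none was a duplicate. The fits were tested on simulated data. Alternatives were DESeq2 1.42.0, limma-voom (limma 3.58.1) with sample weights, RLE factors, other filters, fewer groups, and leaving out RNA classes or libraries.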

Additional observations from a re-analysis of the deposited data

Results flagged for a closer look

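This check used levels as log2 of CPM plus 2. Within each group of 4 libraries, the gap between the highest or lowest library and its nearest neighbour was taken. It was divided by the range of the group and compared with Dixon's 95% critical value. Of 160 checks (80 genes in Tie2Cre_H2Abf and in WT) 21 exceeded it, 13.1%, where chance gives about 8 of 160. A gene at 0 in all libraries of a group but 1 gives a ratio of 1 at any level, and so always exceeds the critical value. This was so for H2-Ob, Cspg4 and Col3a1 in WT and for Notch3 and Col3a1 in Tie2Cre_H2Abf. Of the Tie2Cre_H2Abf libraries, Tie2Cre_H2Abf_9582 stood apart for Tlnrd1 (0.872, lowest), Mettl16 (0.830, highest) and Hspg2 (0.968, lowest), Tie2Cre_H2Abf_9583 for H2-DMa (0.866, lowest), Ifi47 (0.899, lowest) and Fbln5 (0.970, highest), Tie2Cre_H2Abf_9576 for Aqp1 (0.848, lowest) and Notch3 (1, highest), and Tie2Cre_H2Abf_9589 for Col3a1 (1, highest, at 0.145 CPM and 0 in the others). Of the WT libraries, WT_9771 was the lowest for Pecam1 (0.889), Cd34 (0.886), Selp (0.920), Fli1 (0.846) and Tap1 (0.849), and the highest for H2-Ob (1), Cspg4 (1) and Col3a1 (1), each of which was at 0 in the other 3 WT libraries. WT_9772 was the highest for Apln (0.932) and the lowest for Cd274 (0.916). WT_9748 was the highest for Notch3 (0.938) and WT_9749 for Tagln (0.838). Of the 12 cases in WT 8 fell on WT_9771, the library with 47.1% satellite counts; what part its makeup has in them was not tested.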

How the results depend on the processing

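H2-Ab1 passed over WT in all 19 alternatives (log2 fold change -5.76 to -4.85), and over both Tie2Cre and WT in each but the fit of only the groups compared, where 0 genes passed over both, 0 by the plain count, and 1 lower gene, Fbln2, over Tie2Cre (adjusted p of H2-Ab1 over both 0.174). Counts of genes moved with the test. DESeq2 called 36 higher and 26 lower over WT, 21 higher and 37 lower over Tie2Cre, 45 higher and 32 lower for Tie2Cre over WT, 10 lower in the joint test and 2 higher and 13 lower by the plain count. Limma-voom called 4 higher and 4 lower over WT, 8 lower over Tie2Cre and 2 lower by the plain count. RLE factors gave 5 lower over Tie2Cre. Without a filter 10 higher and 8 lower passed over WT, 1 higher and 8 lower over Tie2Cre and 2 lower by the plain count, and with at least 5 CPM 2 lower passed over WT. Leaving out each library gave 0 to 4 higher and 1 to 2 lower over WT, 0 to 1 higher and 1 to 4 lower over Tie2Cre, 0 higher and 0 to 1 lower for Tie2Cre over WT, and 0 higher and 1 lower over both in every run. Without WT_9772 Apln, Plvap, Dusp1 and Kctd12 passed higher and Spon1 lower, and without WT_9749 Trp53inp2 passed; the cause was not tested.

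The median log2 fold change of all genes over WT was -0.19 with TMM, -0.39 with RLE factors and with DESeq2, 0.10 with limma-voom and 0.02 without WT_9771 and Tie2Cre_9501, and the share of higher genes among those with an unadjusted p under 0.05 was 36.8%, 24.3%, 32.3%, 60.8% and 61.6% in the same order. Among named genes the sign over WT turned for some when 1 library was left out. Ciita ranged from -0.86 to 0.25, with values above 0 without Tie2Cre_H2Abf_9582 or WT_9748. Cd74 ranged from -0.67 to 0.10 and Notch3 from -7.01 to 1.83, above 0 without WT_9748. Tagln ranged from -1.63 to 3.16, above 0 without WT_9749. Pecam1 ranged from -0.045 to 0.33, Cspg4 from -3.74 to 5.97 and Col3a1 from -7.19 to 1.76, each turning without WT_9771, and H2-Eb1 from -0.12 to 0.60, below 0 without WT_9771 or WT_9772. Without WT_9771 and Tie2Cre_9501 the values were -0.036 for Pecam1, -0.041 for H2-Eb1, 6.84 for H2-Ob, 5.99 for Cspg4 and 1.79 for Col3a1, and with limma-voom 1.65 for H2-Ob, 0.26 for Tagln and 0.85 for Cspg4. H2-Ob, Cspg4 and Col3a1 are at 0 in WT once WT_9771 is out, so their fitted folds there are no bounds. No paired analysis was possible because each library number occurs in 1 group only. With a biological coefficient of variation of 0.995, few calls do not show that the other genes are alike.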
